A study of Rattus norvegicus with 64 samples.

Results

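The neurexins, neuroligins and leucine-rich repeat transmembrane proteins (LRRTMs) were followed in the entorhinal cortex of the rat from birth to adolescence. They were chosen by name, from a list of 9 genes, namely Nrxn2, Nrxn3, Nlgn1, Nlgn2, Nlgn3, Lrrtm1, Lrrtm2, Lrrtm3 and Lrrtm4. Of the 9, 8 had a row among the 17260 genes of the count tables. Lrrtm1 had none and was not analysed here. All 8 passed the filter on low counts, which 12521 genes passed in all, and the lowest count of any of the 8 in any sample was 75, for Lrrtm4.

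Neurexins sit mainly in the presynaptic membrane and reach across the synaptic cleft, where neuroligins and LRRTMs on the postsynaptic side bind them. Neuroligin 1, encoded by Nlgn1, is found at excitatory synapses, neuroligin 2 (Nlgn2) at inhibitory synapses, and neuroligin 3 (Nlgn3) at both. LRRTMs organize excitatory synapses and help to hold AMPA-type glutamate receptors there. Together these proteins are known as synaptic organizers, since a contact between them is enough to start the assembly of a synapse.

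Total RNA was sequenced after depletion of ribosomal RNA in 64 samples of untreated Long Evans rats, 32 of the medial (MEC) and 32 of the lateral (LEC) entorhinal cortex. Tissue was dissected under a microscope from slices as layer II (LII) or as the deeper layers (LDeep, described for the MEC as layers III to VI), at postnatal days 2, 9, 23 and 45 (P2, P9, P23, P45). From the youngest to the oldest age each layer of each region had 5, 4, 3 and 4 samples, and no group carried a transgene or received a treatment. A sample holds whole tissue with neurons, glia, vessels and, in LII, the brain surface, so a lower value can come from fewer cells of a type or from less RNA per cell, which cannot be told apart here.

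Read pairs counted on genes numbered 3894334 to 11439143 per sample (median 7569157.5). Values are given as CPM, the count scaled to a common library size after TMM adjustment, or as log2 CPM. A difference is a log2 fold change (LFC) from 1 edgeR quasi-likelihood fit of all 64 samples with 1 mean for each of 16 groups, and a gene is called where its p-value, adjusted by the Benjamini-Hochberg method over 12521 genes, is below 0.05. These p-values measure the spread between the samples of a group, since the labels do not say which samples came from separate animals. LII and LDeep samples with the same age and number may come from 1 animal, as the study says of its microRNA samples, and a fit with a replicate block is given where it changed a call. For changes with age, that alternative instead tests the summed counts of the 4 samples that share an age and number. In LII the summed CPM of 2 layer II markers (563.8 to 1528.4) had a median of 855, against 358 in LDeep (120.8 to 820.9), and that of 4 deep layer markers had medians of 149 in LII and 363 in LDeep. In 5 libraries the root mean square deviation from the group mean was above 0.5 on the log2 scale. MEC LII P2 replicate 1 had 676.5 CPM of 6 cerebellar granule cell markers and, with replicate 3 of that group, almost no meningeal markers (13.9995 and 22.5 CPM against 302.0 to 531.6 in the other 3). That replicate 1 was also high in inhibitory neuron markers, with 1679.7 CPM (377.6 to 977.7 in the other 4). Its astrocyte markers stood at 1943.7 CPM (872.9 to 1069.7 in the other 4). Outside the 5 libraries, cerebellar markers were high in LEC LDeep P45 replicate 2 (385.6 CPM) and MEC LII P23 replicate 2 (281.7 CPM). LEC LII P45 replicate 2 held 267.2 CPM of them. Their medians over all samples were 27.7 CPM in LII and 3.34 CPM in LDeep. MEC LDeep P2 replicate 1 held 451.0 CPM of meningeal markers (39.2 to 78.2 in the other 4) and 774.5 CPM of layer II markers, more layer II signal than the other 4 (256.8 to 382.7 CPM) and against its label. The remaining pair, MEC LDeep P2 replicate 4 and LEC LDeep P45 replicate 4, stood out in the genes described here and in layer markers. MEC LDeep P2 replicate 4 had 1006.7 CPM of deep layer markers (373.3 to 559.7 in the rest of its group). LEC LDeep P45 replicate 4 had 820.9 CPM of layer II markers (383.1 to 613.6 in the rest of its group), which goes against its label. Its deep layer markers (314.2 CPM against 261.6 to 304.0) and meningeal markers (52.4 CPM against 91.0 to 133.8) went with the label. Each result that changed its call without these 5 libraries is given with both values.

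The genes lie on 8 chromosomes of the rat genome build Rn6. The neurexin genes are Nrxn2 (chr1:221801524-221908047, plus strand, 22 exon blocks) and Nrxn3 (chr6:112133204-114067564, plus strand, 23 exon blocks). The neuroligin genes are Nlgn1 (chr2:111058792-111792962, minus strand), Nlgn2 (chr10:56431588-56444844, minus strand) and Nlgn3 (chrX:71199516-71221951, plus strand). The LRRTM genes are Lrrtm2 (chr18:28012877-28017925, minus strand), Lrrtm3 (chr20:25990304-26163656, plus strand) and Lrrtm4 (chr4:110702279-111497641, plus strand). Lrrtm2 lies inside the span of Ctnna1 on the opposite strand. No exon of the 8 genes overlapped an exon of another gene in the tables, and the counting used strand.

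Levels can be compared between genes once they are divided by exon length. As CPM per kilobase, averaged over the 16 groups, the order was Nlgn3 (53.2), Nlgn1 (48.8), Nrxn2 (47.0), Nlgn2 (33.2), Nrxn3 (30.7), Lrrtm2 (23.0), Lrrtm3 (20.3) and Lrrtm4 (14.5). The ranges of group means overlapped between all neighbours in this order. For Nlgn3 the group means ran from 40.4 to 64.6 and for Nlgn1 from 35.0 to 63.7, so these 2 genes do not differ beyond their spread over groups. For Lrrtm3 they ran from 6.29 in MEC LII at P9 to 32.1 in LEC LDeep at P23, the widest proportion between lowest and highest group among the 8 genes. Each of the LRRTMs had a mean below those of both neurexins and all 3 neuroligins on this scale.

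**Figure D1:**
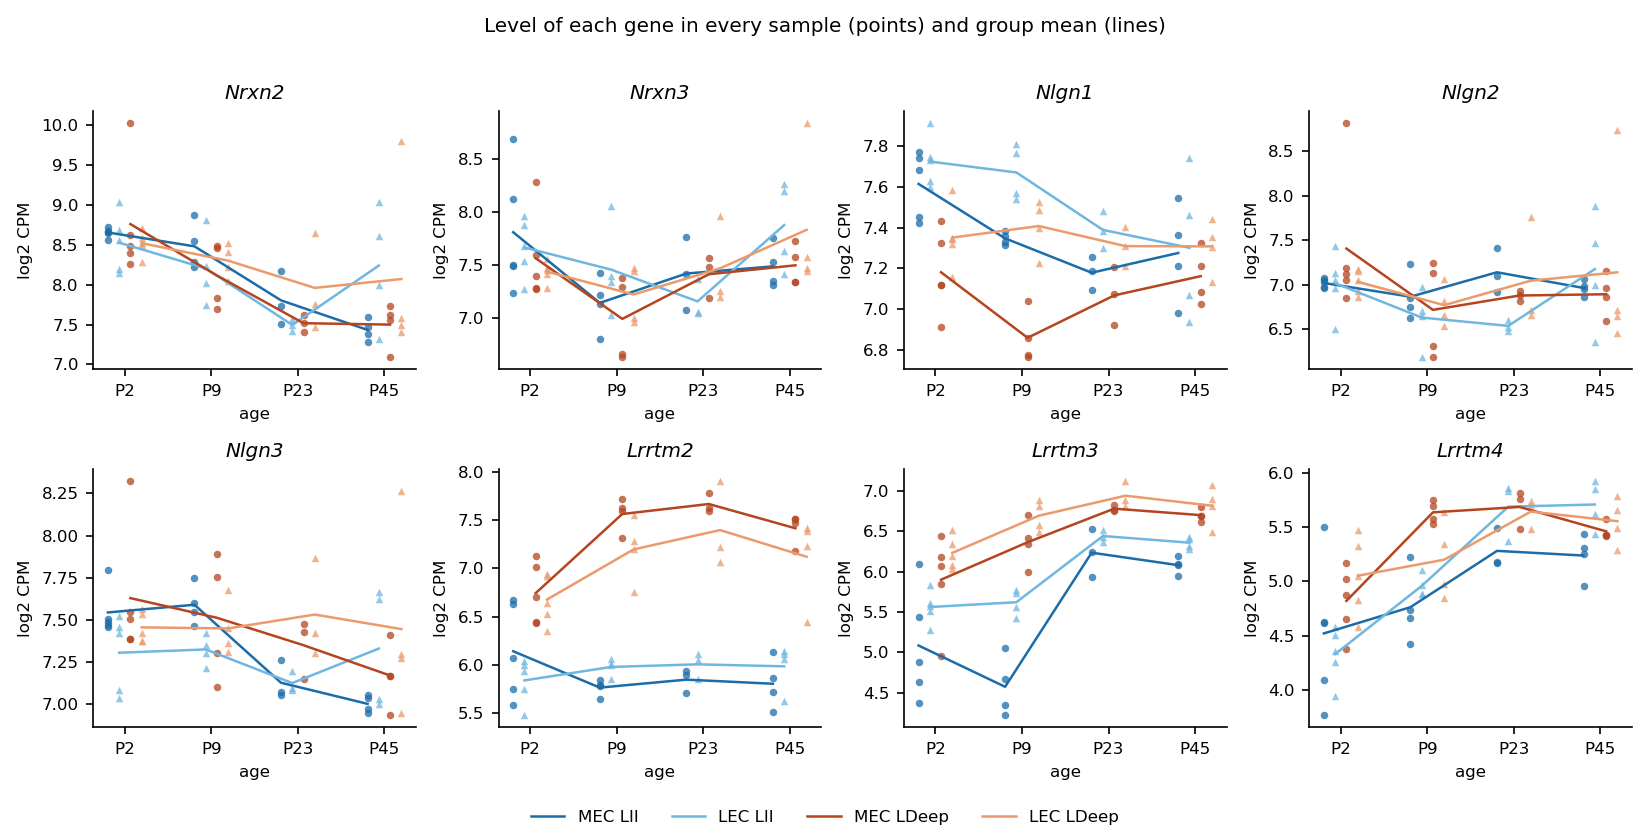
Log2 CPM of the 8 genes (vertical axes, which differ between panels) at P2, P9, P23 and P45 (horizontal axes), with 1 point per sample (circles MEC, triangles LEC) and lines through the group means. Lrrtm2 stays near 6 in LII at all ages and lies above 7 in most LDeep samples from P9, and Nrxn2 is lower at P23 and P45 than before in most samples.

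The first question was how the genes changed over the postnatal weeks in which entorhinal circuits mature. Between the younger (P2 and P9) and the older ages (P23 and P45), with the 4 tissues weighted equally, 6 of the 8 genes were called, and 3 rose while 3 fell. The background was high, since 81.6% of all genes tested were called in this comparison, 41.0% as higher and 40.6% as lower at the older ages. The median LFC was 0.08 over the 8 genes and 0.01 over all genes. Counts of genes therefore tell little here, and the size and timing of each change are given instead.

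Nrxn2 fell. It encodes a neurexin, a presynaptic partner of the neuroligins and LRRTMs. In the 36 younger samples its level ran from 206.3 to 1046.4 CPM with a median of 361, and in the 28 older samples from 135.7 to 896.9 CPM with a median of 189. The ranges overlap, and the 2 highest values come from single libraries of the set that stood apart. The LFC was -0.65 (SE 0.13, adjusted p 6.28e-06), a level 1.57-fold higher at the younger ages, and without the 5 libraries it was -0.72. By steps, Nrxn2 showed an LFC of -0.36 from P2 to P9 (SE 0.16, adjusted p 0.0507) and of -0.59 from P9 to P23 (SE 0.19, adjusted p 0.00591), with no call from P23 to P45 (0.23, SE 0.19, adjusted p 0.628). The step from P2 to P9 was on the other side of the threshold in DESeq2 (adjusted p 0.0402) and in limma voom (adjusted p 0.0212).

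Nrxn3, the other neurexin with a row, followed another course. Its median was 169 CPM at the younger and 175 CPM at the older ages (LFC 0.11, SE 0.09, adjusted p 0.299), but it was not flat between them. It fell from a median of 180 CPM at P2 to 152 CPM at P9 (LFC -0.43, SE 0.13, adjusted p 0.00262) and stood at 158 CPM at P23 and 187 CPM at P45, with uncalled LFCs of 0.15 and 0.34 for these later steps. The 95% interval of the last step ran from 0.05 to 0.62, and its adjusted p was 0.205. As a share of the CPM per kilobase of both genes, Nrxn2 made up 65.7% at P2 and 66.4% at P9 but 54.4% at P23 and 49.7% at P45 by the median. The lowest share at P9 (59.1%) lay above 11 of the 12 samples of P23, whose highest share was 60.2%.

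Among the neuroligins, changes with age were small. Nlgn1 had a median of 170 CPM at the younger ages (108.3 to 240.8) and of 150.2 CPM at the older ages (121.0 to 213.7), with an LFC of -0.14 (SE 0.04, adjusted p 0.00256). From P2 to P9 its LFC was -0.15 (SE 0.06, adjusted p 0.0187), a call lost without replicate 1 or 2 of P2 or replicate 2 of P9 (-0.13 to -0.12, adjusted p up to 0.0848). Nlgn3 had medians of 176 and 143 CPM (131.0 to 320.2 against 122.0 to 307.6) and an LFC of -0.21 (SE 0.07, adjusted p 0.00361). Its LFC from P9 to P23, -0.19 (adjusted p 0.0916), was called without the 5 libraries (-0.20, adjusted p 0.0171), without replicate 2 of P23 (-0.28, adjusted p 0.0352) and by limma voom (-0.23, adjusted p 0.0202). The ranges of both genes overlap almost fully, so these are shifts of the mean and not separate levels. Nlgn2, with medians of 125 and 119 CPM, gave an LFC of 0.06 with a 95% interval from -0.18 to 0.31 (adjusted p 0.626). From P2 to P9, however, Nlgn2 fell by 0.40 (SE 0.16, adjusted p 0.025), from a median of 133 to 105 CPM. One library of P2, MEC LDeep replicate 4, held 452.2 CPM, and the LFC was -0.23 (adjusted p 0.173) without replicate 4 of P2 in the 4 tissues and -0.27 (adjusted p 0.0307) without the 5 libraries. The call was also lost without replicate 3 of P9 (-0.34, adjusted p 0.0916) and without replicate 4 of P9 (-0.38, adjusted p 0.0528), and with a replicate block (-0.42, adjusted p 0.0696).

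All 3 LRRTMs rose with age, by different amounts and at different times. Lrrtm3 had a median of 57.1 CPM in the younger samples (18.4 to 118.8) and of 91.9 CPM in the older ones (60.7 to 139.7), an LFC of 0.76 (SE 0.08, adjusted p 3.54e-13) or 1.69-fold. The step fell between P9 and P23, with an LFC of 0.78 (SE 0.11, adjusted p 4.72e-08), against 0.08 (SE 0.10, adjusted p 0.539) from P2 to P9, or 0.17 (adjusted p 0.0414) without the 5 libraries and 0.26 (adjusted p 0.0374) with a replicate block, which sums the 4 tissues of a number. Lrrtm4 had medians of 29.1 CPM (13.3 to 53.5) and 44.6 CPM (30.8 to 60.5), an LFC of 0.60 (SE 0.07, adjusted p 2.46e-10) or 1.52-fold. Its rise was spread over both steps, with LFCs of 0.42 (SE 0.10, adjusted p 0.000246) and 0.43 (SE 0.11, adjusted p 0.00072). Lrrtm2 rose by 0.17 (SE 0.07, adjusted p 0.0266), and this call was lost under 8 of the 24 alternatives, for example in limma voom (0.12, adjusted p 0.101). Its pooled medians of 86.8 and 78.5 CPM differ in sign from the LFC, which compares group means within each tissue. Lrrtm2 rose from P2 to P9 (LFC 0.25, SE 0.09, adjusted p 0.0143), a call lost without replicate 1 of P9 (0.22, adjusted p 0.057).

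By steps, 5 of the 8 genes were called from P2 to P9, where 63.4% of all genes were, and 3 from P9 to P23, where 64.6% were. From P23 to P45 none of the 8 was called by the edgeR test, against 3.85% of all genes (482, or 60 with a replicate block), and none by DESeq2 or limma voom either. Only Nrxn3 had an unadjusted p below 0.05 there. Cell type markers moved with the same comparison. Of 5 neuron markers 4 were higher at the older ages (median LFC 1.26), all 5 oligodendrocyte markers were higher (median LFC 6.43), and 4 of 5 astrocyte markers were higher (median LFC 1.33). Summed neuron marker levels in LDeep were 2413.9 to 4857.4 CPM at the younger and 6366.8 to 7763.0 CPM at the older ages. The part of these shifts in the changes of the 8 genes was not tested.

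**Figure D2:**
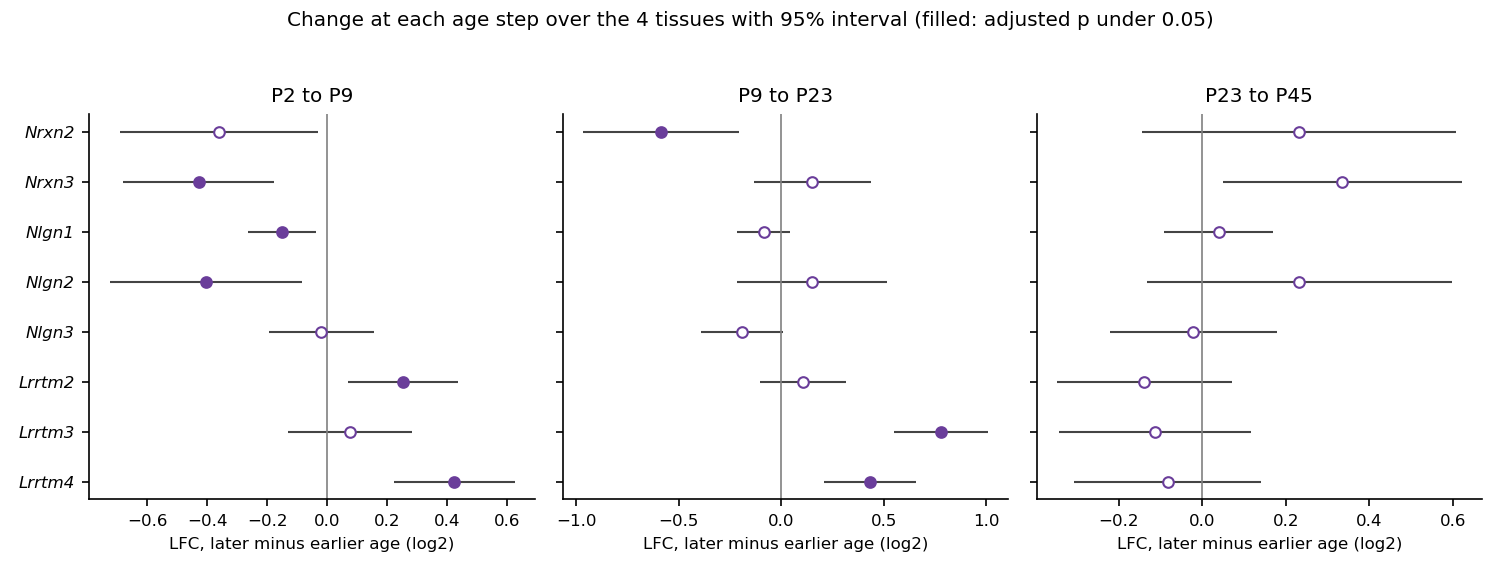
LFC of each gene for 3 age steps, later minus earlier age (horizontal axes, log2), over the 4 tissues weighted equally, with 95% intervals (bars) and filled points where the adjusted p was below 0.05. Nrxn3, Nlgn2 and Nlgn1 fall and Lrrtm2 rises from P2 to P9, Nrxn2 falls and Lrrtm3 rises from P9 to P23, Lrrtm4 rises in both steps, and no gene is called from P23 to P45.

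The bases just before the annotated starts of Lrrtm3 and Lrrtm4 are shown because these genes had the largest rises with age among the 8. The sequences are from RefSeq on the build GRCr8, not Rn6, and each is the 150 bases that end at the base before the start. For Lrrtm3 the stretch is chr20:24514154-24514303 (plus strand), and for Lrrtm4 it is chr4:114104480-114104629 (plus strand). Both strands were searched for the TATA box (TATAAA), part of the cAMP response element (CGTCA), a pair of E boxes (CACGTG and also CAGCTG) and the AP-1 element (TGACTCA). Matches are in capitals, and none overlaps another.
Lrrtm3: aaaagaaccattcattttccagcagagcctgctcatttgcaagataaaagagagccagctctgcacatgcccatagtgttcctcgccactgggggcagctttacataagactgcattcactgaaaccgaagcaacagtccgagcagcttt
Lrrtm4: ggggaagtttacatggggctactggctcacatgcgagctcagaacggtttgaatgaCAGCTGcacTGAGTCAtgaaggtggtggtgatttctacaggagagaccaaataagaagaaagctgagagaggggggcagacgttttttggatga
Lrrtm4 holds 1 match to CAGCTG and 1 to TGACTCA, which 7.63% and 2.38% of 33469 such stretches in the table hold, and Lrrtm3 holds none of the 5 motifs. GC content was 48.0% before Lrrtm3 and 49.3% before Lrrtm4, against a median of 52.7% over all stretches. These are matches of letters only. No stretch for Nrxn2 or Nrxn3 is in the table.

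The second question was how LII differs from the deeper layers. With the 4 ages weighted equally, 4 of the 8 genes were called in the MEC, 1 higher and 3 lower in LII, where 40.8% of all genes were called, 21.0% as higher and 19.9% as lower. In the LEC 3 were called, 1 higher and 2 lower, where 38.6% of all genes were called, 17.4% as higher and 21.2% as lower. In both regions the called genes were Lrrtm2 and Lrrtm3, lower in LII, and Nlgn1, higher in LII, with Lrrtm4 lower in LII of the MEC. The median LFC over the 8 genes was -0.08 in the MEC and -0.21 in the LEC, against -0.03 and -0.06 over all genes.

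Lrrtm2 had the largest layer difference of the 8 genes in both regions. In the MEC its LFC was -1.45 (SE 0.10, adjusted p 5.53e-17), a level 2.73-fold higher in LDeep, and in the LEC it was -1.17 (SE 0.10, adjusted p 7.36e-14), or 2.26-fold. At P2 the 5 samples of MEC LII had 98.8, 47.9, 101.5, 66.8 and 53.6 CPM and those of MEC LDeep 87.0, 128.8, 86.5, 139.1 and 103.6 CPM. The groups overlap at this age, through replicates 1 and 3 of LII, both among the 5 libraries that stood apart. From P9 on they were separate. At P9 the MEC LII samples had 57.4, 55.1, 49.7 and 54.6 CPM and the MEC LDeep samples 196.9, 211.1, 159.0 and 192.5 CPM. At P23 the values were 59.2, 60.9 and 52.2 CPM in LII and 197.5, 192.8 and 219.4 CPM in LDeep. At P45 they were 57.8, 52.4, 45.3 and 69.8 CPM in LII and 181.6, 177.2, 181.6 and 144.2 CPM in LDeep. Each LDeep sample of P9, P23 and P45 was thus above 140 CPM and each LII sample below 70 CPM.

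In the LEC, Lrrtm2 was separate between layers at all 4 ages, and LDeep was higher in 16 of 16 replicate numbers. LEC LII held 44.3 to 65.7 CPM at P2 and 57.6 to 66.3 CPM at P9, then 57.6 to 68.8 CPM at P23 and 49.3 to 70.3 CPM at P45. LEC LDeep held 81.5 to 122.7 CPM at P2 and 107.7 to 187.1 CPM at P9, then 133.6 to 239.7 CPM at P23 and 86.8 to 171.0 CPM at P45. The lowest LDeep value of P45 is from replicate 4, the library that stood apart. From the youngest to the oldest age, the LFC of Lrrtm2 was -0.56, -1.81, -1.82 and -1.61 in the MEC and -0.84, -1.25, -1.44 and -1.17 in the LEC. All 8 of these were called, the MEC difference at P2 with an adjusted p of 0.032, and that call was lost under 8 of 25 alternatives, where the LFC went as low in size as -0.37 (without replicate 2 of P2, adjusted p 0.239). The MEC difference at P2 was -0.87 (adjusted p 0.000323) without the 5 libraries. In LII the medians were 59.3 CPM at the younger and 60.1 CPM at the older ages, while those in LDeep were 126 and 174 CPM.

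Lrrtm3 was also lower in LII, with an LFC of -0.92 in the MEC (SE 0.11, adjusted p 1.25e-09, 1.89-fold higher in LDeep) and of -0.69 in the LEC (SE 0.11, adjusted p 8.52e-07, 1.61-fold). At P2 the MEC layers overlapped, at 20.5 to 68.2 CPM in LII and 30.8 to 86.8 CPM in LDeep, and the LFC of -0.75 (adjusted p 0.00965) became -1.45 (adjusted p 8.85e-09) without the 5 libraries. That call was lost under 4 of 25 alternatives, namely without replicate 2, 4 or 5 of P2 (-0.58, -0.58 and -0.50, adjusted p 0.0812, 0.101 and 0.157) and in the fit of the MEC alone (adjusted p 0.0709). In the LEC at P2 the LFC was -0.68 (SE 0.19, adjusted p 0.0131), and the call was lost without replicate 4 (-0.60, adjusted p 0.0666) or 5 of P2 (-0.59, adjusted p 0.0713). The difference was wide at P9. There MEC LII had 25.3, 32.9, 20.1 and 18.4 CPM and MEC LDeep 103.9, 85.3, 63.8 and 80.8 CPM, and LEC LII had 52.9, 54.5, 46.9 and 42.7 CPM and LEC LDeep 118.8, 112.9, 95.2 and 89.6 CPM. The layers do not overlap at this age in either region, and the LFC was -1.78 in the MEC (SE 0.22, adjusted p 6.97e-08) and -1.08 in the LEC (SE 0.22, adjusted p 0.000233). By P45 the ranges had come closer, with 61.7 to 72.9 CPM in MEC LII, 97.9 to 111.8 in MEC LDeep, 77.5 to 86.4 in LEC LII and 89.6 to 134.2 in LEC LDeep, still without overlap. The LFC at P45 was -0.62 in the MEC (adjusted p 0.0377) and -0.48 in the LEC (adjusted p 0.136), the latter called at -0.61 (adjusted p 0.00158) without the 5 libraries. The MEC call at P45 was lost under 5 of 25 alternatives, without replicate 1, 2 or 3 of P45 (adjusted p 0.0925, 0.103 and 0.124), in the fit of the MEC alone (0.147) and with at least 10 counts in every sample (0.0611). At P23 it was -0.53 (adjusted p 0.144) and -0.51 (adjusted p 0.191), neither called, and both were called without the 5 libraries (-0.57, adjusted p 0.00586, and -0.54, adjusted p 0.0118).

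Lrrtm4, the third LRRTM, was lower in LII of the MEC, with an LFC of -0.42 (SE 0.11, adjusted p 0.00122, 1.34-fold). In the LEC its LFC was -0.20 with a 95% interval from -0.41 to 0.01 (adjusted p 0.135), and it was called there without the 5 libraries (-0.21, adjusted p 0.0469). At P9 MEC LII held 37.2, 25.1, 21.2 and 26.4 CPM and MEC LDeep 51.4, 53.5, 45.9 and 47.4 CPM, groups that do not overlap (LFC -0.86, adjusted p 0.00296). At P2 the layers were separate in the LEC, with 15.1 to 23.6 CPM in LII and 23.7 to 44.0 CPM in LDeep (LFC -0.75, adjusted p 0.00548), and overlapped in the MEC (-0.19, adjusted p 0.544). The MEC value at P2 rests on replicate 1 of LII, the library with the highest cerebellar markers, whose 45.0 CPM was above the other 4 (13.3 to 24.4 CPM). Without the 5 libraries that difference was -0.72 (adjusted p 0.0115). At P45 the LEC layers overlapped, with 43.0 to 60.5 CPM in LII and 38.8 to 54.8 CPM in LDeep.

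Nlgn1, whose product sits at excitatory synapses like the LRRTMs, went the other way. It was higher in LII by 0.29 in the MEC (SE 0.06, adjusted p 0.000138, 1.22-fold) and by 0.19 in the LEC (SE 0.06, adjusted p 0.0129, 1.14-fold). The LEC call was lost without replicate 4 of P45 (0.12, adjusted p 0.0939) and without replicate 3 of P23 (0.17, adjusted p 0.0612). At P2 MEC LII had 174.6, 218.0, 205.5, 171.2 and 214.0 CPM and MEC LDeep 160.1, 172.2, 138.8, 119.98 and 138.6 CPM. The groups overlapped by a single pair of samples, and LII was higher in 5 of 5 replicate numbers (LFC 0.43, adjusted p 0.00731). At P9 MEC LII had 160.6, 166.7, 158.8 and 164.1 CPM and MEC LDeep 109.2, 115.8, 131.2 and 108.3 CPM, with no overlap (LFC 0.48, adjusted p 0.0033). In the LEC the layers were separate at P2 (193.4 to 240.8 against 142.5 to 191.7 CPM, LFC 0.37, adjusted p 0.0141) and at P9 (185.6 to 223.8 against 149.2 to 183.6 CPM, LFC 0.26, adjusted p 0.135). The call at P2 was lost without replicate 5 of P2 (0.36, adjusted p 0.0697), and the difference at P9 was called by limma voom (0.40, adjusted p 0.0204). At P23 and P45 the layers overlapped in both regions, and the LFCs lay between 0.03 and 0.12.

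The other neuroligins and the neurexins showed no called layer difference over all ages or at a single age. For Nlgn3 the LFC was -0.12 in the MEC (95% interval -0.31 to 0.07) and -0.22 in the LEC (-0.40 to -0.03, adjusted p 0.0631), and LDeep was higher in 12 of 16 replicate numbers of the LEC. The LEC value of Nlgn3 was on the other side of the threshold under 6 of 25 alternatives, among them a replicate block (-0.21, adjusted p 0.0395) and the fit without replicate 2 of P45 (-0.26, adjusted p 0.0308). At P23 in the LEC the 3 LII samples of Nlgn3 had 146.2, 136.5 and 135.5 CPM and the 3 LDeep samples 171.5, 233.4 and 157.6 CPM, separate in range (LFC -0.43, adjusted p 0.206), and the difference was called without the 5 libraries (-0.46, adjusted p 0.0348). For Nlgn2 the LFCs were -0.04 (-0.38 to 0.30) and -0.23 (-0.57 to 0.11). For Nrxn2 they were 0.08 (-0.28 to 0.43) and -0.17 (-0.52 to 0.18), and for Nrxn3 0.11 (-0.16 to 0.38) and 0.03 (-0.24 to 0.30). Each of these intervals includes a difference of the size found for Nlgn1 in the LEC (0.19) in at least 1 of the 2 directions.

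At P45 in the LEC the signs of the layer differences of Nrxn2 and Nlgn2 depended on the libraries used. Nrxn2 stood at 254.2, 524.5, 159.6 and 392.5 CPM in LII and at 169.4, 191.1, 179.6 and 896.9 CPM in LDeep (LFC -0.10, SE 0.35, adjusted p 0.899). Without the 5 libraries, of which the one with 896.9 CPM belongs to this group, the LFC turned to 0.85 (adjusted p 0.00986). Nlgn2 stood at 127.6, 235.8, 81.4 and 176.5 CPM in LII and at 87.4, 104.8, 99.8 and 427.6 CPM in LDeep, and its LFC of -0.20 (adjusted p 0.778) likewise turned to 0.64 (adjusted p 0.0407). The highest LII values of both genes, 524.5 and 235.8 CPM, are from LEC LII replicate 2, which is not among the 5 libraries. That library held 267.2 CPM of cerebellar markers, and its part in the turned signs was not tested.

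At single ages the number of genes called among the 8, with the share of all genes called, was 3 (9.23%), 4 (17.7%), 1 (16.5%) and 2 (14.8%) in the MEC from P2 to P45. In the LEC it was 4 (12.1%), 2 (15.5%), 1 (11.3%) and 1 (13.3%) in the same order of ages. These became 4, 4, 2 and 2 in the MEC and 4, 2, 3 and 4 in the LEC without the 5 libraries. The calls over all genes rose too. In the MEC they went from 1156, 2216, 2072 and 1849 of 12521 genes to 2312, 3423, 3144 and 2808 of 12472. In the LEC they went from 1510, 1940, 1409 and 1665 to 1981, 2877, 2473 and 3444. Lrrtm2 was called in all 8 of these comparisons, Lrrtm3 in 5, Nlgn1 in 3 and Lrrtm4 in 2.

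**Figure D3:**
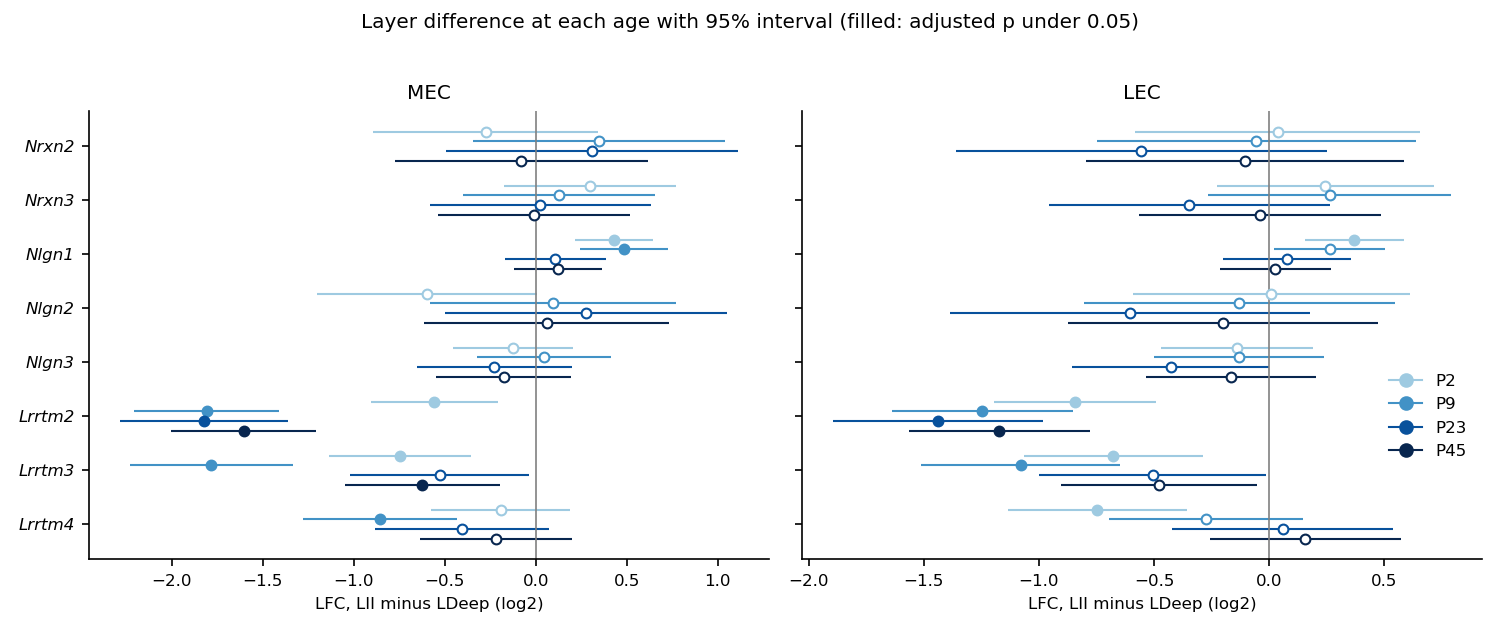
LFC of LII minus LDeep for each gene (horizontal axes, log2; values below 0 are higher in LDeep) in the MEC and the LEC at 4 ages, with 95% intervals (bars) and filled points where the adjusted p was below 0.05. Lrrtm2 lies below 0 with a filled point in all 8 comparisons, Lrrtm3 has its lowest values at P9, and Nlgn1 lies above 0 at P2 and P9.

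An age effect on the layer difference was called for 2 of the 8 genes, against 8.8% of all genes. It is the LII minus LDeep difference at P23 and P45 minus that at P2 and P9, over both regions. For Nlgn1 it was -0.30 (SE 0.09, adjusted p 0.0171), and its layer LFCs at the older ages were the small ones given above. In LII Nlgn1 went from a median of 196 CPM at the younger to 155 CPM at the older ages, and in LDeep from 154 to 148 CPM. For Lrrtm3 it was 0.54 (SE 0.15, adjusted p 0.0173), and its layer difference narrowed. Lrrtm3 went from a median of 42.9 to 78.6 CPM in LII and from 81.1 to 112 CPM in LDeep. For Lrrtm2 the change was -0.40 (SE 0.14, adjusted p 0.0645) and for Lrrtm4 0.41 (SE 0.15, adjusted p 0.0757), and both were called without the 5 libraries (-0.41, adjusted p 0.0113, and 0.50, adjusted p 0.00572). Lrrtm2 was also called by DESeq2 (-0.42, adjusted p 0.0373), with RLE size factors (-0.42, adjusted p 0.0496) and when any of 5 replicate numbers was left out, as far as -0.56 (adjusted p 0.00281) without replicate 4 of P45. Lrrtm4 was also called without replicate 1 of P2 (0.53, adjusted p 0.00234). The call for Lrrtm3 was lost when any of 6 replicate numbers was left out (0.42 to 0.49, adjusted p up to 0.0992), and that for Nlgn1 without replicate 2 of P23 (-0.28, adjusted p 0.0763). No gene of the 8 was called for a difference of the layer effect between MEC and LEC, against 1.25% of all genes, and none had an unadjusted p below 0.05 there. DESeq2 and limma voom also called none. For Lrrtm3 it was -0.23 (adjusted p 0.561), and it was called without the 5 libraries (-0.40, adjusted p 0.0251).

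The 3 LRRTMs differed in their proportions between layers. Of their summed CPM per kilobase, Lrrtm2 made up 34.2% to 49.7% in LII (median 41.9%) and 33.7% to 54.1% in LDeep (median 41.8%) in the P2 samples. At P23 its share was 24.2% to 27.6% in LII and 36.7% to 50.4% in LDeep, and at P45 20.4% to 29.8% in LII and 31.6% to 47.4% in LDeep, with no overlap at either age. Lrrtm4 showed the reverse, with 26.5% to 37.0% in LII and 15.9% to 25.5% in LDeep at P23. At P9 the share of Lrrtm4, over both regions, was 29.7% to 42.4% in LII and 16.01% to 25.3% in LDeep. Its share was thus higher in LII, although its level in the MEC was lower there. In the LEC its levels at P9 overlapped between layers, with LII higher in 2 of 4 replicate numbers. Lrrtm3 held medians of 40.3% in LII and 33.4% in LDeep at P23. Shares within a sample do not depend on the library size, and they are given as a description.

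**Figure D4:**
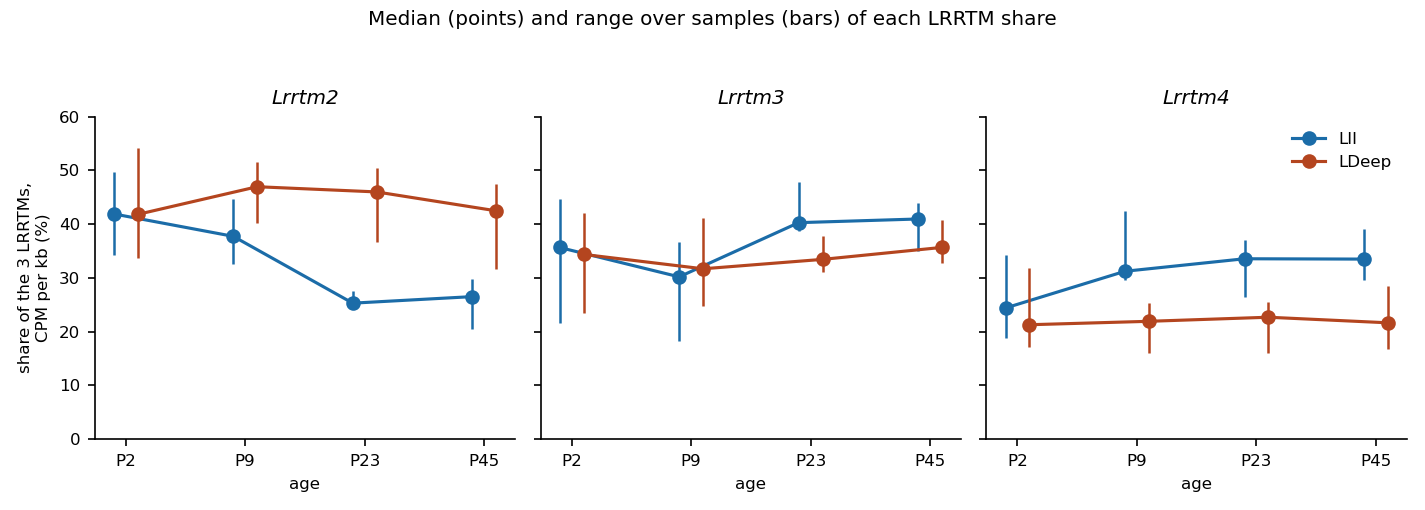
Share of each LRRTM in the summed CPM per kilobase of the 3 (vertical axis, %) at 4 ages in LII and LDeep, MEC and LEC together, with medians (points) and the range over samples (bars). The shares of Lrrtm2 are alike in both layers at P2 (medians 41.9% and 41.8%) and separate at P23 and P45, where LII lies below 30%.

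Other cells differed between the layers too. Of 6 meningeal fibroblast markers 5 were called higher in LII in both regions and 1 lower in the MEC, with summed levels of 13.9995 to 655.4 CPM in LII (median 439) and 16.7 to 451.0 CPM in LDeep (median 96.1). All 5 astrocyte markers were higher in LII in both regions (median LFC 0.95 in the MEC and 0.78 in the LEC), and 4 of 5 oligodendrocyte markers in the MEC and 3 in the LEC were lower in LII. Neuron markers were lower in LII for 2 of 5 genes in the MEC (median LFC -0.22) and 4 of 5 in the LEC (median LFC -0.26). Inhibitory neuron markers went the other way in the MEC, where 3 of 4 were higher in LII (median LFC 0.39). In the LEC none of the 4 was called (median LFC -0.15). All 4 endothelial markers were higher in LII in both regions (median LFC 0.53 in the MEC and 0.77 in the LEC). The part of these shifts in the layer results was not tested.

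The third question was how MEC and LEC differ. In LII 2 of the 8 genes were called, both lower in the MEC, where 12.6% of all genes were called, and in LDeep 1 was called, where 5.78% were. Lrrtm3 was lower in MEC LII, with an LFC of -0.46 (SE 0.11, adjusted p 0.00263, 1.37-fold), and the LEC sample was higher in 13 of 16 replicate numbers. At P9 the regions were separate in LII, at 18.4 to 32.9 CPM in the MEC and 42.7 to 54.5 CPM in the LEC, and again at P45, at 61.7 to 72.9 and 77.5 to 86.4 CPM. At P2 the MEC LII samples spread from 20.5 to 68.2 CPM around the LEC values of 38.6 to 56.8 CPM. In LDeep the LFC of Lrrtm3 was -0.22 (adjusted p 0.276).

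Nlgn1 was lower in the MEC in both layers. In LDeep its LFC was -0.28 (SE 0.06, adjusted p 0.00191, 1.21-fold), and at P9 MEC LDeep with 108.3 to 131.2 CPM lay below LEC LDeep with 149.2 to 183.6 CPM. In LII the LFC was -0.17 (SE 0.06, adjusted p 0.0496), at the threshold, and the call was lost under 13 of 24 alternatives, among them the one without the 5 libraries (adjusted p 0.0618). At P9 MEC LII (158.8 to 166.7 CPM) lay below LEC LII (185.6 to 223.8 CPM), at P23 both layers were separate between the regions as well, and at P2 and P45 they overlapped. Lrrtm4 was called in LII without the 5 libraries (-0.31, adjusted p 0.0168, against -0.19 and 0.266 with them). The change of the regional difference with age was called for 1 of the 8 genes, against 4.38% of all genes. Nlgn3 had -0.43 there (SE 0.13, adjusted p 0.0488), and this call was lost under 16 of 24 alternatives, among them the one without the 5 libraries (-0.26, adjusted p 0.14). Lrrtm3 had 0.29 (adjusted p 0.331), and it was called without those libraries (0.38, adjusted p 0.0194). Some cell type markers differed between the regions too. Of 4 inhibitory neuron markers 2 were called higher in MEC LII than in LEC LII (median LFC 0.47). Of 5 oligodendrocyte markers 2 were called higher in MEC LDeep than in LEC LDeep (median LFC 0.65). The part of these shifts in the regional results was not tested.

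The partners of these proteins were read from 6 lists with 57 genes in all, of which 55 were in the tables and all 55 were tested. Over the 6 lists, 21 genes were higher and 23 lower at the older ages. In the MEC 6 were higher and 16 lower in LII, and in the LEC 2 were higher and 32 lower, with median LFCs of -0.09 and -0.25 against -0.03 and -0.06 over all genes. Of all genes tested, 41.0% were higher and 40.6% lower at the older ages. In LII of the MEC 21.0% were higher and 19.9% lower, and in LII of the LEC 17.4% and 21.2%. These shares are the background for each list below.

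Of 8 secreted ligands of neurexins tested, 4 were lower and 2 higher in LII of the MEC, and 6 lower and 1 higher in the LEC. Nxph3, a neurexophilin that binds the extracellular part of neurexins, had an LFC of -3.32 in the MEC (adjusted p 2.03e-18) and of -3.33 in the LEC (adjusted p 2.92e-17). Its group means in the MEC at P9 were 8.88 CPM in LII and 148.7 CPM in LDeep. Nxph4, a second neurexophilin, had similar levels in both layers at P2, with means of 8.03 CPM in MEC LII and 6.82 CPM in MEC LDeep. At P45 its means were 0.237 CPM in MEC LII and 5.62 CPM in MEC LDeep, and its layer difference changed with age by -3.91 (adjusted p 8.7e-11). Cbln4, a cerebellin that bridges neurexins to postsynaptic receptors, was higher in LII by 0.85 in the MEC (adjusted p 0.00059) and by 0.65 in the LEC (adjusted p 0.0097). Cbln1, of the same family, was lower in LII of the LEC (LFC -1.23, adjusted p 0.000138), while its MEC difference was 0.60 (adjusted p 0.052). Cbln1 ran from 1.0 to 38.4 CPM in MEC LII at P2 and from 123.6 to 251.4 CPM in MEC LII at P23. At P45 it ran from 30.7 to 210.0 CPM in LEC LDeep and from 8.33 to 116.7 CPM in LEC LII. These groups each hold a library with high cerebellar markers. In MEC LII at P2 that library, replicate 1, gave the lowest Cbln1 value (1.0 CPM). The part of these libraries in the Cbln1 values was not tested.

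Of 7 partners of neuroligins tested, 4 were called lower in LII of the MEC and 6 in LII of the LEC, and none was called higher. Mdga1 and Mdga2, which bind neuroligins and keep them from neurexins, had LFCs of -0.70 and -0.69 in the MEC (adjusted p 0.000848 and 0.000469) and of -0.87 and -0.94 in the LEC (adjusted p 5.7e-05 and 7.74e-06). Mdga1 also fell by 1.15 with age (adjusted p 4e-12). Gphn, encoding the scaffold gephyrin of inhibitory synapses, had an LFC of -0.04 with age (adjusted p 0.43). Dlg4, encoding the scaffold PSD-95 that binds neuroligin 1, rose by 0.56 (adjusted p 3.6e-13).

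Of 3 regulators of neurexin splicing, Khdrbs2 and Khdrbs3 were lower in LII, with LFCs of -0.74 and -0.53 in the MEC (adjusted p 3.56e-07 and 2.42e-06) and of -0.61 and -0.50 in the LEC (adjusted p 1.68e-05 and 5.18e-06). Khdrbs1 and Khdrbs2 fell with age by 0.58 and 0.79 (adjusted p 3.9e-12 and 7.1e-13). The tables hold counts per gene, so splice forms of the neurexins and neuroligins were not measured. All 7 intracellular partners of neurexins were called between ages, 2 higher and 5 lower, where 81.6% of all genes were called. Among them was Cask, the scaffold kinase at the neurexin tail, with an LFC of -0.64 (adjusted p 6.9e-21). Of 5 other surface partners 4 were higher at the older ages and Dag1, encoding dystroglycan, was lower (-0.17, adjusted p 0.005). Gpc4, the glypican that binds LRRTM4, rose by 0.49 with age (adjusted p 7.9e-08). Of 25 other synaptic organizers 9 were higher and 9 lower at the older ages, against 41.0% and 40.6% of all genes. In LII of the LEC 15 were lower (21.2% of all genes), and in the MEC 6 (19.9%), a difference that was not tested as such.

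Within a group, 4 of the 8 genes moved together from library to library. After the group mean was taken from each log2 CPM, the deviations of Nrxn2 and Nlgn2 over the 64 libraries had a Pearson r of 0.95, those of Nlgn2 and Nlgn3 of 0.93, those of Nrxn2 and Nlgn3 of 0.91, and those of Nrxn3 with these 3 genes of 0.77 to 0.80. Without the 5 libraries the lowest of the 6 values was 0.70 and the highest 0.92 over 59 libraries. Nlgn1 did not share this, with values of -0.26 to -0.07 against the same 4 genes, and the LRRTMs had values of -0.15 to 0.31. Among themselves, Lrrtm2 and Lrrtm3 had 0.64, Lrrtm2 and Lrrtm4 0.46, and Lrrtm3 and Lrrtm4 0.36.

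These values are a description with no test, and within a library all genes share 1 depth. The mean deviation of the 4 genes was above 0.5 in 4 libraries and below -0.5 in 2, and it was highest in LEC LDeep P45 replicate 4 (1.29) and MEC LDeep P2 replicate 4 (1.02). Its correlation with the deviation of the log2 total count was -0.33. Many other genes shared it, since 453 of 12520 had an r above 0.8 with Nrxn2 and 473 with Nlgn2, while no gene had one with Nlgn1 or an LRRTM. The 453 genes had a median exon length of 4575 bases, against 2183 over all genes tested. The part of exon length or of library size in this was not tested.

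**Figure D5:**
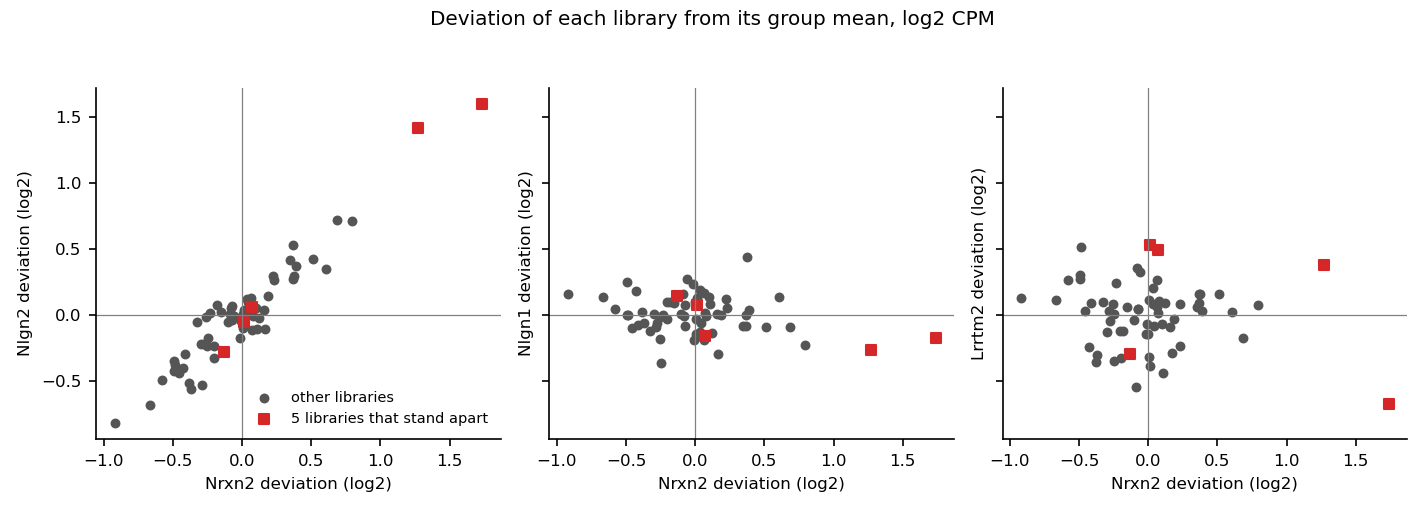
Deviation of each of the 64 libraries from its group mean in log2 CPM, for Nrxn2 (horizontal axes) against Nlgn2, Nlgn1 and Lrrtm2 (vertical axes), with the 5 libraries that stand apart as squares. The points of Nlgn2 lie along a line (r 0.95), and those of Nlgn1 (-0.26) and Lrrtm2 (-0.15) do not.

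The stretches before the starts of the neuroligin genes are shown because Nlgn2 and Nlgn3 varied together in this way and Nlgn1 did not. Any part of these stretches in that variation was not tested. They are the 150 bases before the start, from RefSeq on GRCr8, searched for the same 5 motifs, with no match in any of the 3. Nlgn1 is at chr2:110930677-110930826 (minus strand), Nlgn2 at chr10:55056579-55056728 (minus strand) and Nlgn3 at chrX:70469328-70469477 (plus strand).
Nlgn1: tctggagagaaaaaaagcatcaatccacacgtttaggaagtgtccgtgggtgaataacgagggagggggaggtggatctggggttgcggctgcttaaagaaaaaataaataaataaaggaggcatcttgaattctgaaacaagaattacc
Nlgn2: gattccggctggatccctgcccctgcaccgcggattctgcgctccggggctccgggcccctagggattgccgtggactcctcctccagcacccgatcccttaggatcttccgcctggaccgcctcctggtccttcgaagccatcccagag
Nlgn3: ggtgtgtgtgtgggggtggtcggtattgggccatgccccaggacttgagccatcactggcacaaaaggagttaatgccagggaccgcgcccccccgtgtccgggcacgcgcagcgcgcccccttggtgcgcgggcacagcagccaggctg
The GC content was 42.7% before Nlgn1, 67.3% before Nlgn2 and 68.7% before Nlgn3. Of all stretches in the table, 18.8% had a lower GC content than that of Nlgn1, 83.9% than that of Nlgn2 and 86.0% than that of Nlgn3. The dinucleotide CG occurred 4 times before Nlgn1 and 11 times before each of the other two.

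Over the 16 group means of log2 CPM, the genes most like each member were taken from 11892 genes with a mean of at least 1 CPM, by Pearson r, as a description. For Nrxn2 they were Pvrl1 (0.98), Cdc42bpb (0.96) and Cacna1h (0.95), and for Nrxn3 Kcnd3 (0.95), Qsox2 (0.95) and Eif5b (0.86). For Nlgn1 they were March3 (0.88), Lrrn1 (0.87) and Frem1 (0.85). For Nlgn2 they were Scaf1 (0.95), Nup214 (0.94) and Fbxo42 (0.93), and for Nlgn3 Slc25a27, Slit2 and Cacna1b (each 0.88). For Lrrtm2 they were Bhmt (0.97), Myh2 (0.96) and the neurexophilin gene Nxph3 (0.95). For Lrrtm3 they were Cacnb2 (0.93), Ngef (0.92) and Ctgf (0.91), and for Lrrtm4 Dpp10 (0.95), P4ha1 (0.94) and Hprt1 (0.93). Among the members themselves the highest r over group means was 0.80, between Lrrtm3 and Lrrtm4, and the lowest was -0.69, between Nrxn2 and Lrrtm4.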

How the data were processed

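The authors trimmed the reads (Trimmomatic 0.33), aligned them to Rn6 (STAR 2.4.0) and counted pairs over RefSeq exons in the reverse-stranded mode of featureCounts (Subread 1.4.6-p1), where a pair that overlaps several genes counts for each. The deposited values are raw counts per gene, 1 table per sample, grouped here by their labels. The counts were scaled by TMM and tested with the quasi-likelihood test of edgeR 4.0.16 (R 4.3.3) on the 12521 genes that passed filterByExpr, with 16 group means, 19 contrasts and no block. P-values were corrected over all genes tested (Benjamini-Hochberg), and log2 CPM used a prior count of 2. The members and the lists of partners and markers were chosen with earlier results of these data known. All 8 genes are named, partners by list, and for each member the 3 genes most alike over group means. Alternatives were DESeq2 1.42.0, limma 3.58.1 voom with quantile normalization, RLE size factors, other filters on counts, a replicate block, fits of 1 region and leaving out each replicate number. In place of a block, changes with age were tested on counts summed over the tissues of each number. Fits without 5 libraries and with the first axis of within-group deviations as a covariate were added after the data were seen. The edgeR step was tested on simulated data. No 2 replicates held identical counts over 100 pairs.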

Additional observations from a re-analysis of the deposited data

Results flagged for a closer look

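Of 96 groups of 4 or 5 samples, 10 held a sample far from the others by Dixon's test, where chance alone flags about 1 in 20 groups. In MEC LDeep at P2, replicate 4 was far above the other samples for Nrxn2 (1046 CPM), Nlgn2 (452.2 CPM) and Nlgn3 (320.2 CPM). In LEC LDeep at P45, replicate 4 was far above the others for Nrxn2 (896.9 CPM), Nrxn3 (456.5 CPM) and Nlgn2 (427.6 CPM). These 6 values come from 2 of the 5 libraries that stand apart. In MEC LII at P2, replicate 1, the library with the highest level of cerebellar granule cell markers, was high for Nlgn3 (221.9 CPM). For Lrrtm2, MEC LDeep P45 replicate 4 was low at 144.2 CPM and LEC LII P45 replicate 1 was low at 49.28 CPM, each still on its own layer's side. For Lrrtm4, MEC LDeep P45 replicate 2 was high at 47.24 CPM, in a group whose other samples lay between 42.5 and 42.8 CPM.

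In 3 cases an effect differed between groups by a test of the difference. The layer difference changed between the younger and older ages for Nlgn1 (-0.3025 on the log2 scale) and for Lrrtm3 (0.5378), and the MEC to LEC difference changed with age for Nlgn3 (-0.4288). Of 24 alternatives, the call was lost under 1 for Nlgn1, 6 for Lrrtm3 and 16 for Nlgn3.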

How the results depend on the processing

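Of 45 calls over the 8 genes and 19 contrasts, 31 were kept under every alternative run for them and 14 were lost under at least 1, and the causes were not tested. In fits of 1 region, 1 gene was called between layers in the MEC at P2 and 1 at P45, and 2 in the LEC at P23 and 2 at P45. Without the 5 libraries, 2 were called in the MEC at P23, 3 in the LEC at P23, 4 in the LEC at P45, 1 for layer by region and 4 for layer by age. Over all 12472 genes tested in that fit, the calls were 3144, 2473, 3444, 342 and 1887 in the same order. In that fit the layer LFC in the LEC at P45 was 0.8541 for Nrxn2 and 0.6421 for Nlgn2, the reverse of their signs with all libraries. With the first axis as a covariate, 2 were called in the LEC at P45 and 4 for layer by age. With at least 10 counts in every sample, 1 was called in the MEC at P45. For region by age 0 were called under RLE size factors, limma voom, no filter on low counts or at least 10 counts in every sample. With no filter, 1 was called between regions in LII. Leaving out a replicate number gave 1 to 4 genes for the layers of the MEC at P2, 1 to 2 at P45, 2 to 4 for the LEC at P2, 1 to 2 for regions in LII, 0 to 3 for layer by age and 0 to 1 for region by age.

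Whether the replicate numbers pair samples of 1 animal is not stated for these libraries. Deviations of same-numbered samples correlated by 0.12 to 0.13 on average, against -0.05 to -0.04 for different numbers, and 8 or 9 of 16 pairs were over 0.1. Between 7 and 10 of 16 samples correlated best with their own number. With a replicate block, the P2 to P9 change of Nlgn2 lost its call (-0.42, adjusted p 0.0696), Lrrtm3 gained one (0.26, adjusted p 0.0374) and Nlgn3 gained the layer call in the LEC (-0.21, adjusted p 0.0395). For changes with age, this alternative sums the tissues of each number and tests the 16 sums, with no block term. Over all genes, such summing moved the calls from P23 to P45 from 482 to 60. A block in the fit moved those for layer by region from 156 to 286. Without the 5 libraries the count for the layers of the MEC at P2 went from 1156 to 2312, for the LEC at P45 from 1665 to 3444 and for layer by age from 1102 to 1887. With at least 10 counts in every sample, and so fewer genes tested, it went from 5112 to 3312 for the MEC and from 4835 to 2892 for the LEC. The lowest count of the 8 genes was 75 reads, for Lrrtm4, but the SE of the change with age was larger for Nrxn2 (0.13) than for Lrrtm4 (0.07).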
